A study of Caenorhabditis elegans with 6 samples.

Results

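The core histone genes of Caenorhabditis elegans were examined as the 54 probe sets whose platform annotation lists a numbered his gene or htz-1, out of 22548 probe sets tested. The rule rested on gene symbols alone and used no measured value, though members were chosen with earlier results of these data known. Because histone genes are near-identical copies of each other, probe sets rather than genes were counted. Of the 54, 30 were annotated to 1 histone gene, 24 listed several symbols, and 44 carried in their ID the platform's mark of probes shared with other sequences. A probe set named below for 1 gene may therefore read others as well where it carries that mark. Together the 54 probe sets list 73 histone genes, every one that the RefSeq gene table of assembly WBcel235 names by the same rule. The rule on symbols also takes in his-24, which encodes a linker histone and no core histone, and its 2 probe sets are described apart.

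The space group was worms of strain CC1 that lived through several generations on the International Space Station, where an automatic device moved them to fresh medium about once a month. The labels name radiation and microgravity as the exposure. The ground group was the same strain, passaged on the same schedule on Earth. Both were kept in the liquid C. elegans maintenance medium CeMM, and the flown worms were of mixed stages. Each group has 3 Affymetrix arrays labelled as technical replicates, so p-values reflect array-to-array spread alone, and that spread may be technical. The labels do not say how many cultures or RNA extracts lie behind them.

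The median deposited intensity of an array lay between 111.9 and 119.3 for space and between 102.5 and 128.1 for ground. The log2 ratio of the array's 5' over its 3' actin control lay between -3.24 and -2.92 for space and between -4.27 and -3.57 for ground, so this measure of RNA integrity and labelling did not overlap between the groups. The same ratio of the Gapdh control did overlap, at -0.93, -2.05 and -1.51 on space arrays 1, 2 and 3 and at -0.87, -1.87 and -3.64 on ground arrays 1, 2 and 3. With the mean of both ratios as a covariate, 3 of the 4 histone probe sets that rose still passed. Background was read from 8 controls whose target a worm lacks, which reached 0.562 to 86.7. In 4 histone probe sets both group means lay within that range, namely those of his-69, his-70, his-73 and the pair his-40 and his-17.

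Histones H2A, H2B, H3 and H4 form the protein core around which DNA is wound into nucleosomes. The canonical, replication-dependent genes lie in clusters, are switched on while DNA is copied in S phase, and give messengers that in animals generally end in a stem-loop in place of a poly(A) tail. How far the labelling captured such messengers was not tested, so intensities of canonical genes and of other genes may not be like measures. Replacement variants, such as the H3.3-type histones and H2A.Z, are also put into chromatin outside S phase. In a bulk sample of whole worms, fewer cells of a type and less RNA per cell cannot be told apart.

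Most histone probe sets had a somewhat higher intensity on the space arrays, and few of them passed the test. Of the 54, 40 had a positive log2 fold change (74.1%, against 49.6% of all probe sets), and the median was 0.33, against -0.01 over all probe sets. Here and below, a fold change is space minus ground on the scale log2(intensity + 16), and a probe set is said to have risen or fallen if the adjusted p of limma over all probe sets was under 0.05 and the change at least 2-fold. By that rule 4 histone probe sets rose (7.41%), where 5.15% of all probe sets did, and 0 fell, where 2.16% of all did. The share that rose was thus close to that of the whole array. Without space array 1 and ground array 3 together, 0 histone probe sets rose, and 0 probe sets of the whole array passed (limma; 20 histone probe sets were higher and 2 lower at an unadjusted p under 0.05). At an unadjusted p under 0.05, limma found 14 higher and 2 lower histone probe sets, 25.9% and 3.70% of them, against 14.8% and 9.81% of all. Both lower ones are of the linker histone gene his-24, so that 0 core histone probe sets were lower at that p.

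All 3 space arrays lay above all 3 ground arrays in 18 histone probe sets (33.3%, against 17.3% of all), and all 3 lay below in 3 (5.56%, against 13.0% of all). Of the 3 below, 2 are of his-24 and the other, of his-69, is at background. The remaining 33 overlapped. The 4 that rose were 1 probe set of the H2A.Z gene htz-1, the H3.3-type gene his-74, a probe set shared by the H2B genes his-44, his-11 and his-15, and a probe set shared by 14 H3 genes. Another pair, of the H3 gene his-42 and the H2A gene his-68, had an adjusted p under 0.05 with changes short of 2-fold. With those, 6 members were higher at that adjusted p (11.1%, against 6.28% of all), and 0 were lower, against 2.78% of all.

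The probe sets of the canonical classes H2A, H2B, H3 and H4 numbered 41, with a median log2 fold change of 0.34. Of these 2 rose (4.88%, against 5.15% of all probe sets) and 33 were positive (80.5%, against 49.6%). In 15 of the 41 the space arrays lay above the ground arrays without overlap (36.6%, against 17.3%), and in 0 of them below (13.0% of all).

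H4 binds H3 in the nucleosome core, and all 12 of its probe sets had a positive change (100%, against 49.6% of all), from 0.09 to 0.99, with a median of 0.58. None of the 12 passed, where 5.15% of all probe sets rose. The largest was that of his-64, with intensities of 1849, 1967 and 3270 on the space arrays, against 1081, 1076 and 1269 on the ground arrays. These groups did not overlap, and the spread was wider among the space arrays. The log2 fold change was 0.99 ± 0.27 (SE) with an adjusted p of 0.0586. The probe set shared by his-64, his-56 and his-46 stood at 2401, 3381 and 4135 on the space arrays, against 1755, 1799 and 2140 on the ground arrays (0.77 ± 0.25, adjusted p = 0.108). The brightest 2 H4 probe sets had small values. That of his-37 had 6634, 7271 and 7949 on the space arrays and 5354, 6135 and 9473 on the ground arrays, with a change of 0.10 ± 0.26. The change of the probe set of his-10, his-26 and his-14 was 0.09 ± 0.20. In both, the groups overlapped. Space exceeded ground without overlap in 6 of the 12 (50%, against 17.3% of all).

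H2B pairs with H2A in the nucleosome. Its 9 probe sets ran from -0.05 to 1.36, with a median of 0.57. Of these 1 rose (11.1%, against 5.15% of all probe sets) and 8 were positive (88.9%, against 49.6%). The one that rose is shared by his-44, his-11 and his-15. Its intensities were 826.0, 1199 and 1653 on the space arrays, against 360.3, 413.6 and 606.4 on the ground arrays. Every space array exceeded every ground array. Its log2 fold change was 1.36 ± 0.32 (adjusted p = 0.0379). The call was lost without space array 2 (adjusted p = 0.112), space array 3 (0.118), ground array 1 (0.0975) or ground array 2 (0.105), and after quantile normalization (1.20, adjusted p = 0.0691). The probe set of his-34 and his-29 had the next largest change, 1.102 ± 0.42, with 308.9, 792.5 and 936.9 on the space arrays and 208.7, 278.7 and 366.0 on the ground arrays. Its groups overlapped and it did not pass (adjusted p = 0.154). At the other end stood his-41, at 1083, 1255 and 1437 on the space arrays and 1112, 1298 and 1493 on the ground arrays, a change of -0.05 ± 0.22.

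Of the 11 probe sets of canonical H3, 7 were positive (63.6%, against 49.6% of all) and 1 rose (9.09%, against 5.15% of all). The median was 0.33. The probe set that rose lists 14 genes, among them his-27, his-17, his-13, his-6 and his-42, and so reads the family and no single gene. It stood at 1861, 1350 and 1786 on the space arrays, against 866.0, 789.6 and 677.9 on the ground arrays, without overlap. The change was 1.08 ± 0.22 (adjusted p = 0.0271), just past 2-fold. Leaving out any 1 of the 6 arrays ended this call (log2 fold changes of 0.98 to 1.22, adjusted p = 0.0514 to 0.100), as did quantile normalization (0.99, adjusted p = 0.0307) and the 5'/3' ratio as a covariate (0.88, adjusted p = 0.0824).

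Probe sets annotated to single H3 genes or smaller groups of them gave a range of values. Those named here all carry the mark of shared probes, so they too may read other genes. The probe set of his-42 stood at 1584, 1375 and 1633 on the space arrays, against 801.9, 717.3 and 835.2 on the ground arrays. It was close to 2-fold higher on space arrays without overlap (0.95 ± 0.20, adjusted p = 0.0276). In contrast, his-2 had 775.1, 1319 and 981.7 on the space arrays and 1140, 1238 and 1264 on the ground arrays (-0.27 ± 0.24, adjusted p = 0.56). The probe set of his-27, his-17 and his-49 was at -0.08 ± 0.23 and that of his-6 at -0.02 ± 0.26. These genes are among the 14 of the shared probe set. Whether the changes differ between these probe sets was not tested.

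The 9 H2A probe sets had the lowest median of the canonical classes, 0.27. Of the 9, 6 were positive (66.7%, against 49.6% of all) and 0 rose, where 5.15% of all did. The largest change was that of his-68, with 998.2, 1097 and 1223 on the space arrays, against 609.3, 560.3 and 661.4 on the ground arrays. The groups were well apart and the change was 0.84 ± 0.20 (adjusted p = 0.0413), short of 2-fold. The probe set of his-19, his-53, his-21 and his-51 was at the lower end, with 1998, 2917 and 3317 on the space arrays and 3219, 2412 and 3708 on the ground arrays (-0.19 ± 0.27, adjusted p = 0.737). The brightest H2A probe set, that of his-35, overlapped as well, at -0.07 ± 0.25.

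The replacement variants gave unlike values. The gene his-74 encodes an H3.3-type histone, and its probe set carries the mark of shared probes. It stood at 1093, 921.4 and 1175 on the space arrays, against 433.0, 328.9 and 446.4 on the ground arrays, without overlap. It rose by 1.37 ± 0.22 on the log2 scale (adjusted p = 0.0119), with a mean of 1063 ± 130 on space arrays and 403 ± 64.3 on ground arrays (SD, n = 3 each). The call was lost without space array 3 (1.30, adjusted p = 0.0561) and remained without any other single array.

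The H3.3-type genes his-72 and his-71 are the broadly expressed sources of this variant. On one probe set, his-72 had 2417, 2614 and 3403 on the space arrays and 1977, 2056 and 2421 on the ground arrays, a change of 0.37 ± 0.22 (adjusted p = 0.358). On the other it had 958.8, 1162 and 1251 on the space arrays and 948.3, 713.5 and 887.5 on the ground arrays, a change of 0.40 ± 0.22 (adjusted p = 0.318). On the first, 1 ground array exceeded the lowest space array, and on the second the groups did not overlap. For his-71 the intensities were 993.9, 1119 and 1144 on the space arrays and 1337, 1040 and 1549 on the ground arrays, with overlap (-0.25 ± 0.22, adjusted p = 0.559).

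Measured on the same arrays, the log2 fold change of his-74 exceeded those of the his-72 probe sets by 1.00 and 0.97, and that of his-71 by 1.62. In each of the 3 pairs the within-array log2 difference was larger on every space array than on any ground array. The exact two-sided permutation p was 0.1, the smallest that 3 arrays against 3 allow, and 0.125 adjusted over the 5 pairs of probe sets compared in this way. That adjustment does not cover how the 5 pairs were chosen. The other H3.3-type genes, his-69 and his-70, stood at background. For his-69 the intensities were 3.22, 3.69 and 3.39 on the space arrays and 4.50, 5.51 and 4.35 on the ground arrays, without overlap but far within the range of the controls. For his-70 they were 7.89, 7.29 and 20.03 on the space arrays and 8.92, 5.63 and 5.20 on the ground arrays. At such intensities a change cannot be read.

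The H2A.Z gene htz-1, whose protein marks the starts of many genes, was read by 2 probe sets that disagreed. On the first it had 1328, 1200 and 1536 on the space arrays, against 413.7, 465.9 and 513.0 on the ground arrays. This was the largest change among all 54 (1.51 ± 0.21, adjusted p = 0.0079), and its call remained without any single array. On the second, the intensities were 367.2, 652.3 and 539.1 on the space arrays and 503.0, 626.6 and 805.1 on the ground arrays, overlapping, with a change of -0.32 ± 0.28 (adjusted p = 0.563).

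The fold changes of the htz-1 probe sets differed by 1.83 on the log2 scale. The within-array difference between them lay between 0.86 and 1.81 for space and between -0.63 and -0.27 for ground (exact permutation p = 0.1, 0.125 adjusted over the 5 pairs). Both carry the mark of shared probes. The call for htz-1 rests on 1 of its 2 probe sets.

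Agreement was closer among other probe sets annotated to the same genes. In the pairs for his-24, his-72, the H3 trio of his-55, the H2B trio of his-66 and the H2B group of his-20, the log2 fold changes of the 2 probe sets lay within 0.18 of each other, the widest gap being that of his-24. The H4 group of his-18, his-28, his-50 and his-5 was at 0.72 ± 0.28 on one probe set and 0.16 ± 0.27 on the other, a gap of 0.56 (exact permutation p = 0.2, also 0.2 adjusted over the 5 pairs). Among pairs annotated to the same genes, only this one and that of htz-1, with the widest gaps, were tested. The adjustment does not cover that choice.

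The linker histone gene his-24, which encodes an H1 protein that binds DNA between nucleosomes, was lower on the space arrays on both of its probe sets. The brighter had 321.5, 363.5 and 382.8 on the space arrays, against 518.8, 801.1 and 681.3 on the ground arrays, and the other 137.0, 78.5 and 86.5 on the space arrays, against 166.0, 157.9 and 176.1 on the ground arrays. Neither overlapped. The changes were -0.86 ± 0.23 (adjusted p = 0.0583) and -0.68 ± 0.24 (adjusted p = 0.131), short of the threshold. After quantile normalization the brighter probe set passed, at -1.03 with an adjusted p of 0.0379. Among the 9 genes of the linker histone list, hil-4, hil-2 and hil-5 rose, by 2.68 ± 0.44, 2.17 ± 0.31 and 1.60 ± 0.23. Of all probe sets 5.15% rose. The median of the list was 0.60, and 7 of the 9 were positive (49.6% of all probe sets were). The ground means of hil-4 (59.6) and hil-2 (85.8) lay within the range of the absent controls, so the sizes of these changes are uncertain. Without space array 1 or space array 3, 2 of the list rose. Beside his-24, hil-7 had negative changes, at -0.45 ± 0.35, -0.47 ± 0.38 and -0.14 ± 0.34 on its 3 probe sets. Its groups overlapped on each of them, and none passed.

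The probe sets of his-39 and his-73, to which no class was given, stood at 0.06 ± 0.26 and -0.12 ± 0.42 (adjusted p = 0.924 and 0.9). A probe set listing 12 genes of several classes stood at 0.33 ± 0.36.

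By place in the genome, as the order of genes in the RefSeq table gives it, 67 of the 73 genes lie in 11 groups of neighbours. Each group is named by its lowest and highest gene number, and it need not hold the numbers between. The 7 probe sets annotated to the his-45 to his-66 group of 12 genes alone, all marked as sharing probes, were positive, from 0.20 to 0.99, with a median of 0.50. All 4 of the his-29 to his-34 group were positive as well (0.27 to 1.102), and so were all 3 of the his-59 to his-62 group (0.34 to 0.67). In the his-17 to his-54 group of 14 genes, 1 of 3 probe sets was positive (-0.19 to 0.46, median -0.08), and all 3 are marked. The 2 of the his-5 to his-39 group stood at -0.02 and 0.06. In the his-1 to his-4 group 3 of 4 were positive (-0.27 to 0.68). In the his-9 to his-44 group of 13 genes the 4 probe sets spread widely. The H4 genes stood at 0.09, the H2A genes his-43, his-12 and his-16 at 0.34, his-42 at 0.95 and the H2B genes at 1.36. Each of the 4 is of another class, so class and probe set cannot be told apart. The neighbours his-35, his-37 and his-41, an H2A, an H4 and an H2B gene, were all within 0.10 of 0, from -0.07 to 0.10. Their 3 probe sets carry no mark of shared probes. Over the 10 histone probe sets without that mark the median was -0.06 and 0 rose. Over the 44 with it the median was 0.36 and 4 rose (9.09%, against 5.15% of all probe sets). Of those 10, however, 4 were at background and 1 is of his-24. In a split made after the values were seen, the 5 unmarked probe sets left ran from -0.07 to 0.84 with a median of 0.10, and the 43 marked ones without his-24 had a median of 0.37. The 2 kinds of probe set read largely different genes, so the mark and the gene cannot be told apart.

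The arrays of one group differed for the histones as a set. Space array 1 was the lowest of the 3 space arrays in 43 of the 54 histone probe sets (79.6%, against 44.7% of all probe sets), and space array 3 was the highest in 43 (79.6%, against 33.7%). The median deviation of the 54 probe sets from their own means over 6 arrays was -0.08 on space array 1, 0.17 on space array 2 and 0.38 on space array 3. On ground arrays 1, 2 and 3 it was -0.30, -0.17 and -0.08. Space array 1 and ground array 3 were thus level for the histones, although the other space arrays lay above all ground arrays. Without space array 3 the median log2 fold change was 0.22, and without space array 1 it was 0.44.

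Genes of DNA replication, which work in the same phase of the cell cycle as the canonical histones, were set beside them. Of the 23 measured genes of the S-phase list, 8 rose and 0 fell, where 5.15% and 2.16% of all probe sets did. The median was 0.92. In 19 of the 23, space exceeded ground without overlap, as in 17.3% of all probe sets. Among the 8, cdt-1 rose from a ground mean of 26.3, within the range of the absent controls. The primase gene pri-1 (1.79 ± 0.22), the ribonucleotide reductase gene rnr-1 (1.69 ± 0.28), the origin recognition gene orc-1 (1.51 ± 0.24) and the replicative helicase gene mcm-4 (1.38 ± 0.23) had the largest changes that passed. The brightest, the single-strand binding protein gene rpa-2, stood at 0.36 ± 0.21 (adjusted p = 0.349). With 1 array left out, 2 (without space array 3) to 6 (without ground array 3) of them rose, 3 without space array 1 or 2, 4 without ground array 2 and 5 without ground array 1. With the 5'/3' covariate 4 of the list rose. The list's summed intensity lay between 17614 and 22162 for space and between 9717 and 11524 for ground. By array, the S-phase median deviation was 0.78, 0.39 and 0.29 on space arrays 1, 2 and 3, so its order among the space arrays was opposite to that of the histones. On ground arrays 1, 2 and 3 it was -0.28, -0.54 and -0.58, opposite to the histones again.

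Germ cells hold most dividing cells of an adult worm. Of 10 markers of germ cells and meiosis 8 rose, where 5.15% of all probe sets did. The summed intensity of the 10 lay between 9341 and 10050 for space and between 3694 and 4370 for ground. No marker of the 6 cell type lists was at 0, but the lowest intensity, 1.40 in the embryo list, lies within the range of the absent controls. Both group means lay within that range for end-3, tbx-37, tbx-38, pes-10, ceh-51, hlh-1, vit-1, fer-1 and spe-11. For those genes the values do not show expression. Of the germ cell genes 7 rose without ground array 1 or 3, 3 without ground array 2 or space array 3, and 2 without space array 1 or 2. With the 5'/3' covariate 4 of them rose. Of 7 oocyte genes 2 rose (sums between 4246 and 5103 for space, 1866 and 2033 for ground). Of 6 measured sperm genes 1 rose, spe-11, with a ground mean of 4.23 at background (sums between 845 and 1321 for space, 626 and 912 for ground). Of 8 embryo genes pal-1 rose and skn-1 fell (sums between 3335 and 4253 for space, 5093 and 7808 for ground). Most of these sums came from skn-1, with means of 2614 on space arrays and 5824 on ground arrays. Of the 8 genes 6 were positive, with a median of 0.20. The call of pal-1 was lost without space array 2, space array 3 or ground array 2. The fall of skn-1 was lost with the 5'/3' covariate and without any 1 array other than ground array 1. In the yolk list vit-5 fell among 5 genes, to a space mean of 16.1 at background (sums between 585 and 674 for space, 722 and 951 for ground). The largest part of these sums came from vit-6 (-0.31 ± 0.22), whose other probe set stood at 0.50 ± 0.26. In the muscle list myo-3 rose among 5, though not without space array 2 or with the 5'/3' covariate (sums between 10278 and 12491 for space, 15062 and 17957 for ground). The largest part of these sums came from unc-15 (-0.76 ± 0.20). The part of these markers in the histone values was not tested.

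The genes that supply and handle histones gave mixed values. Over all probe sets, 5.15% rose and 2.16% fell. Of 5 genes of histone messenger maturation 2 rose. They were csr-1, an Argonaute gene reported to act in histone messenger processing in this worm, and cdl-1, which encodes the protein that binds the histone stem-loop. For csr-1 the mean was 1166 ± 305 on space arrays and 472 ± 107 on ground arrays (SD, n = 3 each; 1.27 ± 0.27, adjusted p = 0.0289). For cdl-1 it was 519 ± 117 on space arrays and 234 ± 57.5 on ground arrays (1.101 ± 0.26, adjusted p = 0.039). Both calls were lost with the 5'/3' covariate and without ground array 2, ground array 3 or any 1 of the space arrays. The brightest gene of that list, ekl-1, was at 0.03 ± 0.20.

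Of 10 chaperone and assembly genes 1 rose, hmg-3, which encodes a subunit of the FACT complex, at 1.58 ± 0.22 (adjusted p = 0.00814); the brightest, nap-1, was at -0.11 ± 0.21. The centromeric H3 gene hcp-3 rose by 1.33 ± 0.19 (adjusted p = 0.00862), the single one of 4 genes for that histone and its loading, of which the brightest, knl-2, was at 0.50 ± 0.27. In the H2A.Z exchange list 1 of 7 genes rose, gfl-1 (1.07 ± 0.23, adjusted p = 0.0311), whose call remained without space array 1 and was lost without any other single array; the brightest, ruvb-2, was at 0.59 ± 0.20.

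Among enzymes that modify histones, 2 of 16 methyltransferase and demethylase genes rose, set-32 (2.07 ± 0.32) and the Polycomb methyltransferase gene mes-2 (1.36 ± 0.28), and 0 fell. The brightest of them, the demethylase gene rbr-2, was at -0.99 ± 0.35 (adjusted p = 0.128), while another of its probe sets fell (-1.19 ± 0.25, adjusted p = 0.0292). Of 12 acetyltransferase and deacetylase genes hat-1 rose (1.55 ± 0.37, adjusted p = 0.0428), from a ground mean of 48.8 within the background range, and the brightest, cbp-1, was at -0.18 ± 0.32. Without any 1 array other than ground array 1, 0 genes of this list rose (limma), and likewise with the 5'/3' covariate. Of the methylation list 1 gene rose with that covariate, and without ground array 2 or any 1 space array. The list medians were 1.101 for messenger maturation, 0.47 for chaperones, 0.82 for centromeric H3, 0.39 for H2A.Z exchange, 0.13 for methylation and 0.12 for acetylation.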

How the data were processed

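Total RNA of worms was labelled with biotin by the standard Affymetrix protocol, per the labels' protocols, and read on 3 arrays for each of 2 conditions. The authors deposited 1 linear intensity for each probe set on each array. The sources used here do not state how these were summarised or scaled; every array's mean, trimmed by 2% at both ends, lay between 500.1 and 500.2. From the 22625 probe sets 77 array controls were removed. Differences were tested on log2(intensity + 16) with lmFit and eBayes of limma 3.58.1 (R 4.3.3), with no term but group, and p-values were adjusted by the Benjamini-Hochberg method across the 22548 that remained; the procedure was also tested on simulated data. Groups and replicate numbers came from the sample titles.

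Members and gene lists were chosen with earlier results of these data known. Histone classes came from textbook assignments, and his-39 and his-73 were left unassigned. Gene lengths in the RefSeq table overlap between classes (384 to 1314 for H2A, 369 to 729 for H2B). They therefore could not settle the class of each gene. For 51 of 54 probe sets every gene ID was found there; his-42 and his-73 were matched by symbol alone. Genes within 100000 bases of each other were called neighbours. Neighbouring lists, 14 in all, used the brightest probe set with 1 symbol for each gene; 7 listed genes had none. All histone probe sets that passed, the variants, his-24, and the brightest and most extreme of each class were named by rule, and from each list up to 4 genes that passed and the brightest. Genes named beyond these were chosen after their values were seen. No sequences were used. Alternatives covered scaling, pseudocount, filters, variance model, replicate block, marked probes, the 5'/3' ratio, a minimum fold and leaving out arrays. The number of arrays limits the precision.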

Additional observations from a re-analysis of the deposited data

How the results depend on the processing

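The 4 histone probe sets that rose became 2 after quantile normalization, 2 with a pseudocount of 1, 2 among probe sets with 1 histone symbol, 0 of the 10 without marks of shared probes (1 higher at an unadjusted p under 0.05), 0 with a 1.5-fold minimum inside the test (4 so) and 0 without space array 1 and ground array 3 together (20 so). Leaving out 1 array gave 1 to 4, with 1 without space array 3 and 2 without space array 2, ground array 1 or ground array 2. With the replicate number as a block it was 4; the correlations of same-numbered arrays' deviations were 0.388, 0.058 and 0.171, so the numbers were not taken to pair the arrays. The count that fell, 0, became 1 after quantile normalization (his-24). The median log2 fold change of 0.33 was -0.0588 over the 10 unmarked probe sets, 4 of them at background and 1 of his-24, and 0.0971 over the 5 others, an alternative chosen after seeing the data. Otherwise it was 0.22 to 0.47. The 1648 calls over all probe sets were 205 with the 1.5-fold minimum, 905 of unmarked probe sets, 1027 with a pseudocount of 1, 0 without space array 1 and ground array 3 (limma), and 588 to 1201 without 1 array. The 34 calls in the neighbouring lists were 4 with the minimum, 14 unmarked, 20 with the 5'/3' covariate, 0 without both arrays and 15 to 32 without 1 array. With that covariate the values of his-35 (0.0201), his-41 (0.14) and the second htz-1 probe set (0.0432) turned positive. Without both arrays so did his-35 (0.18), his-41 (0.16), htz-1 (0.0768), his-73 (0.0139) and the H2A probe set of his-19 (0.16). After quantile normalization his-35 stood at 0.0241 and his-39 at -0.13. Over the 6 fits that each left out 1 array, values of both signs were found for his-35 (-0.26 to 0.13), his-37 (-0.0695 to 0.34), his-39 (-0.12 to 0.25), his-41 (-0.15 to 0.0564), his-73 (-0.42 to 0.26), the H2A probe set of his-19 (-0.36 to 0.0212) and the 12-gene probe set (-0.000696 to 0.65); 0 of these 7 had passed. For the 24 named histone probe sets, 364 results under an alternative kept direction and call, 24 lost the call, 1 gained it and 20 changed sign. The causes were not tested.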
